A study of Mus musculus with 6 samples.

Results

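Signals of 10 actin cytoskeleton genes were compared between the livers of mice with a ligated bile duct and those of sham-operated mice. The genes were 3 actins (Actb, Actg1 and Acta2), the 2 beta-thymosins Tmsb10 and Tmsb4x, and 5 actin-binding proteins (Pfn1, Cfl1, Csrp1, Tpm1 and Tagln2). Each probe set whose platform annotation gives one of these symbols was taken, current or older. This gave 12 probe sets for the 10 genes, of 12488 probe sets and 8251 named genes on the array, with the array's beta-actin control probe sets beside them. All 12 passed the filter on low signals, although Acta2 and 1 of 2 Csrp1 probe sets were under the floor on 2 of the 3 sham arrays.

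All mice were wild-type C57BL/6J males, 8 to 10 weeks old, and livers were taken 1 day after surgery. In the 3 mice of the BDL group (bile duct ligation) the common bile duct was tied and cut under methoxyflurane, and the labels number them 1, 12 and 3. The 3 sham mice, numbered 1, 2 and 3, had a similar opening of the abdomen without ligation. Liver RNA of each mouse was hybridized to an Affymetrix U74Av2 array of its own.

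Actin exists as free monomers and as filaments, and cells set the balance between these pools with small binding proteins. Beta-thymosins hold monomers in reserve, profilin feeds them to growing filament ends, and cofilin cuts and disassembles old filaments. Tropomyosins and transgelins line or bundle the filaments. In liver, cytoplasmic beta- and gamma-actin form the cortex under the hepatocyte membrane and the contractile web around the bile canaliculus, whereas Acta2 marks smooth muscle and activated stellate cells. Free actin monomers also hold back a coactivator of serum response factor, a transcription factor that binds the CArG box, a motif with an A/T-rich core between a pair of C and a pair of G, and actin genes are among its classical targets.

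Sequences from 250 bases before to 50 bases after the annotated start site were taken from RefSeq (build GRCm38.p6) for 9 of the 10 genes, with no entry for Actb. The promoters of Actg1 and Acta2 are shown because these are the member actins with an entry, and their BDL and sham signals did not overlap. Capitals mark the CArG box of Actg1, on the minus strand of chr11:120348446-120348745, and the CArG-like matches of Acta2, on the minus strand of chr19:34255324-34255623. Both sequences run 5′ to 3′ in the direction of transcription.
Actg1: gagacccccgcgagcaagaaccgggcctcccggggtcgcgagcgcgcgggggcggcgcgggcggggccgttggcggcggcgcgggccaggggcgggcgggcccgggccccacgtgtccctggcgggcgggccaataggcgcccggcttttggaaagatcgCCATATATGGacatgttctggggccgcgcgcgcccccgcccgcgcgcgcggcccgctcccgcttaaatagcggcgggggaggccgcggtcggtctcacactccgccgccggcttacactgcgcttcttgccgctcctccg
Acta2: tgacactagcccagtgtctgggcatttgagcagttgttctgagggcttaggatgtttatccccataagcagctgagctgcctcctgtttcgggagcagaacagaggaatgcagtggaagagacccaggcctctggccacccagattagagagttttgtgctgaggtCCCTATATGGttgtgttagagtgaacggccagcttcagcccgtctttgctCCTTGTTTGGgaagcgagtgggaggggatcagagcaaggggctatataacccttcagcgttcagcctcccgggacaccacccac
Actg1 was the only member with a full CArG box (1 of 9 genes, 12 windows), a motif found in 1.64% of 32544 annotated mouse promoter windows of the same length. Its match, CCATATATGG, began 90 bases before the start site. Acta2 held 2 sequences that differ from the box at 1 core position, CCCTATATGG at 84 bases and CCTTGTTTGG at 34 bases before the start site, a looser search that was added after the Acta2 sequence had been read. It found a match in 8.46% of all windows and in 1 of the 9 genes. The letters TATAAA were in the windows of 0 of the 9 genes and in 13.57% of all windows. GGGCGG was in those of 8 genes and 35.88% of all windows, and CCAAT in those of 3 genes and 37.36% of all windows. Both strands were searched, and a match describes the letters only.

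Signals are deposited intensities on a linear scale, and the 2% trimmed mean was between 1500.9 and 1501.3 on all 6 arrays. Among low signals, sham replicate 1 differed most from the rest: its share of values no higher than the floor of 152.7 was 12.5%, against 24.5% to 31.3% on the other 5 arrays. The tissue was checked by hepatocyte markers. All 11 markers on the array were tested, albumin (Alb) had a signal of 147870 to 199675 in BDL mice, against 125084 to 170913 in sham mice, and the summed signal was between 644454 and 942458 in BDL mice, against 531550 to 840882 in sham mice. The small number of arrays limits the precision of everything below, and in whole liver a larger number of cells of a type and more RNA per cell cannot be told apart.

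All 10 genes had a higher mean log2 signal in BDL than in sham livers, by 0.16 to 1.57 on the log2 scale with a median of 0.63, where the median over the 9542 tested probe sets was -0.01 and 48.8% of them had a positive difference. Gamma-actin (Actg1) and the actin-sequestering thymosin Tmsb10 were about equally far apart, at 2.97-fold and 2.92-fold, and smooth muscle actin (Acta2) was at 2.21-fold, a size that the floor sets because 2 of its sham arrays lay under it. With limma, 0 members passed an adjusted p of 0.05 (0.00% of all tested probe sets did), and the lowest adjusted p among the 12 probe sets was 0.667. At an unadjusted p under 0.05, 3 of 10 genes had a higher and 0 a lower BDL level, against 3.40% higher and 2.39% lower of all tested probe sets. Of these 3, Acta2 had 2 sham arrays under the floor and passed the filter only because of its BDL arrays. Under the stricter filter, which leaves Acta2 out, the count was 2 of 9, against 3.99% of all tested probe sets. The genes were not drawn at random from the array but chosen with earlier results of these data known, so the counts are a description. The 3 BDL signals lay above the 3 sham signals for 4 of 10 genes and below them for 0, against 6.32% and 4.32% of all tested probe sets. Across the 6 arrays 38 of the 45 gene pairs had a positive correlation of log2 signals (median r 0.49). The genes share the arrays, so the 10 positive differences are not independent of each other.

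**Figure D1:**
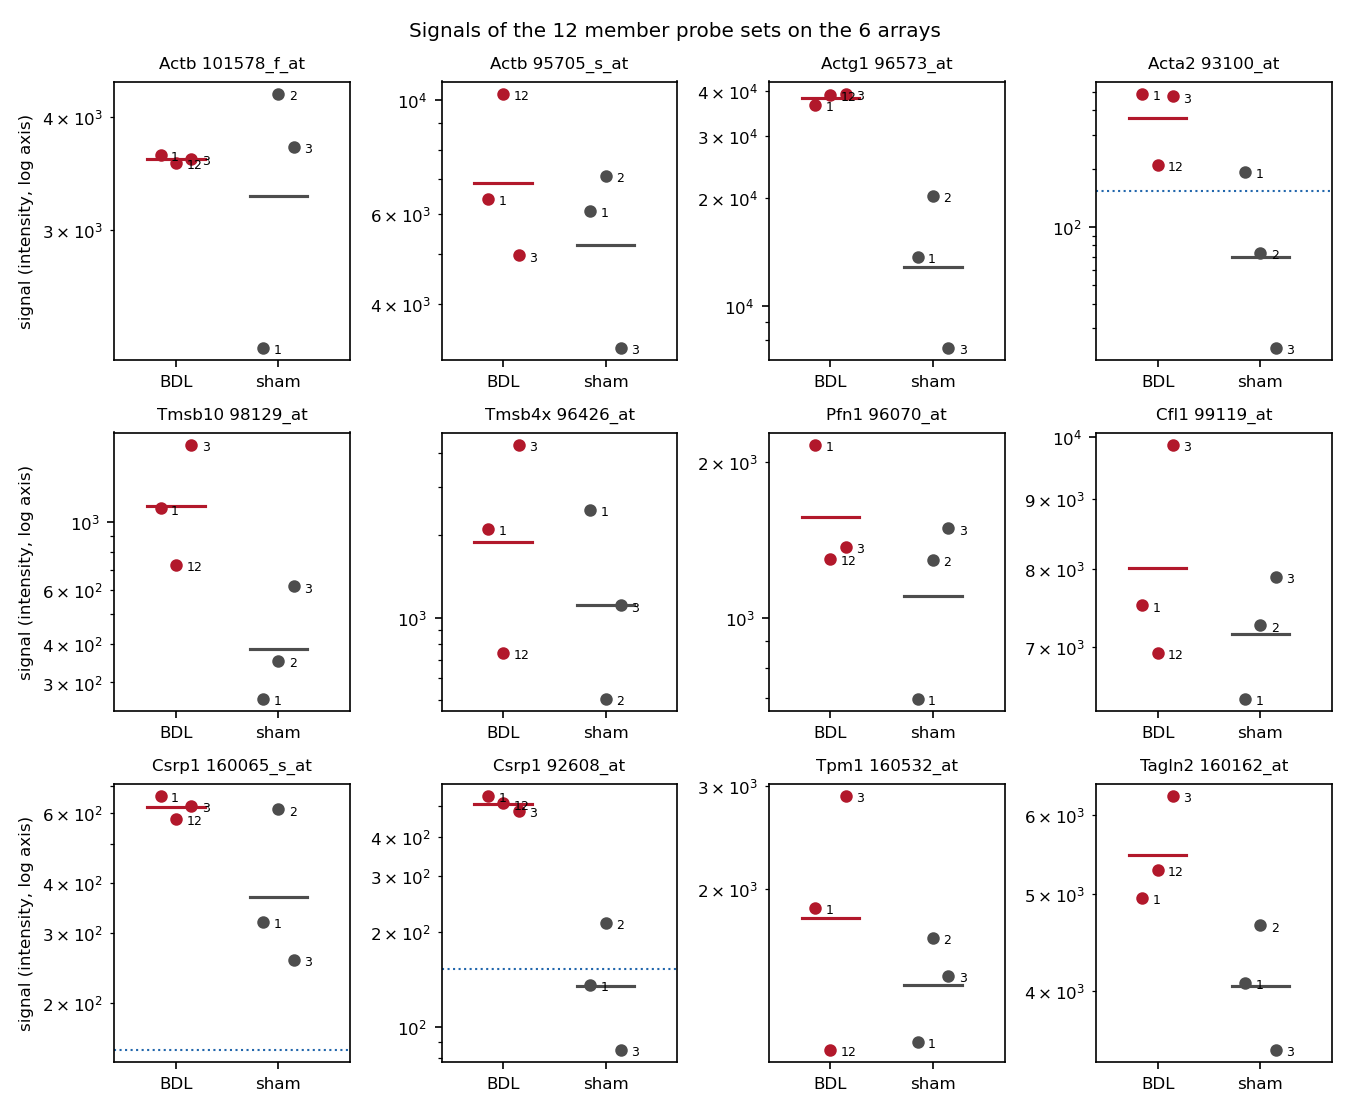
Signals of the 12 probe sets (intensity, log axis) in 3 BDL and 3 sham mice, 1 point per array with its replicate number, with geometric means as lines and the floor of 152.7 dotted where it falls in the plotted range. Actg1 has 3 BDL points between 36555 and 39183 and 3 sham points at or below 20358, whereas the points of Tmsb4x and Cfl1 overlap.

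Gamma-actin was measured far above the floor on every array. Actg1 (probe set 96573_at) had signals of 36555, 39009 and 39183 in BDL replicates 1, 12 and 3, against 13712, 20358 and 7616.5 in sham replicates 1, 2 and 3. The BDL arrays lay close together and the sham arrays were spread out, with sham replicate 3 lowest and no overlap between the groups. Signals averaged 38250 ± 1470 in BDL and 13900 ± 6373 in sham mice (SD, n = 3 each), a coefficient of variation of 3.8% against 45.9%. Its log2 difference was 1.57 (SE 0.38, 95% interval 0.70 to 2.45, limma adjusted p = 0.667), and it ranked 42 of 9542 by unadjusted p. Leaving out sham replicate 3 gave 1.19 and leaving out sham replicate 2 gave 1.90.

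Acta2 (93100_at), the smooth muscle alpha-actin, had signals of 486, 209 and 473 in BDL replicates 1, 12 and 3, against 192, 73.3 and 23.6 in sham replicates 1, 2 and 3. BDL replicate 12 was only just above sham replicate 1, so the groups were apart by a narrow margin. With signals under 152.7 raised to that floor, the log2 difference was 1.14 (SE 0.38, 95% interval 0.27 to 2.02, limma adjusted p = 0.832). It was 2.02 with the floor at the 10th percentile of all signals, and its unadjusted p of 0.0163 became 0.0673 when BDL replicate 1 was left out and 0.0671 when BDL replicate 3 was. Markers of the cells that carry Acta2 are given beside it. Of 14 stellate and smooth muscle markers, 12 were on the array and 9 were tested, 3 of them with a positive difference. Summed over these markers, signals were 12501 to 16486 in BDL livers, against 7340 to 14373 in sham livers. The largest part of that sum was Dcn, at 6652 to 11052 in BDL livers, against 4171 to 7707 in sham livers. The members of the list went both ways, each with overlapping groups: the stellate cell genes Reln and Dcn differed by 1.72 (SE 0.71) and 0.67 (SE 0.36), and desmin (Des) and the myosin light chain Myl9 by -0.89 (SE 0.52) and -0.72 (SE 0.48). Reln was the only one of the 9 tested with an unadjusted p under 0.05 on the higher side (11.1%, against 3.40% of all tested probe sets). The second, dimmer Reln probe set went the other way, at -0.66 (SE 0.48) with overlap. Tagln, the smooth muscle transgelin, differed by -0.11, and the smooth muscle genes Myh11 and Cnn1 were above the floor on 1 array each. The part of these cells in the Acta2 difference was not tested.

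The 2 Actb probe sets had overlapping groups. Probe set 95705_s_at had signals of 6419, 10253 and 4977 in BDL replicates 1, 12 and 3, against 6069.9, 7116.5 and 3290.1 in sham replicates 1, 2 and 3. BDL replicate 3 lay under 2 of the sham arrays, and the log2 difference was 0.40 (SE 0.41, limma adjusted p = 0.880). For 101578_f_at the signals were 3633.5, 3562 and 3595 in BDL replicates 1, 12 and 3, against 2221, 4242 and 3709.5 in sham replicates 1, 2 and 3. The BDL arrays of that probe set were almost level, within a coefficient of variation of 1.0% against 30.9% in sham, and they lay inside the sham range. Its log2 difference of 0.14 (SE 0.33) turned to -0.14 without sham replicate 1 and to -0.06 with array weights. By the array maker's naming, _f_ and _s_ probe sets can bind related transcripts, and actin coding sequences are closely similar, so signal from other actins in these probe sets cannot be told apart. The log2 difference of the muscle actins on the array was 0.37 (Acta1), 0.15 (Actc1) and 0.00 (Actg2), each with overlapping groups.

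Beta-actin was also measured by control probe sets against the 5′, middle and 3′ parts of its transcript, and here the groups were apart. The 5′ set had signals of 46006, 34438 and 54787 in BDL replicates 1, 12 and 3, against 21996, 23357 and 28321 in sham replicates 1, 2 and 3. The 3′ set had 55813, 48510.1 and 72815 in BDL replicates 1, 12 and 3, against 33703, 35904 and 43083 in sham replicates 1, 2 and 3. In all 3 sets the BDL signals exceeded the sham signals, with BDL replicate 3 highest and sham replicate 1 lowest. In the fit that kept control probe sets in, the log2 differences were 0.86 (SE 0.30) for the 5′, 0.88 (SE 0.31) for the middle and 0.64 (SE 0.30) for the 3′ set, each at a limma adjusted p of 0.832. The corresponding Gapdh controls differed by 0.15, 0.12 and 0.17 with overlapping groups. Control sets of the opposite strand differed by 0.34, -0.38 and 0.32 for the 5′, middle and 3′ parts of beta-actin, also with overlap. The beta-actin measures ordered the arrays differently: BDL replicate 12 was the highest array for 95705_s_at, and the lowest BDL array for 101578_f_at and for each control set.

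**Figure D2:**
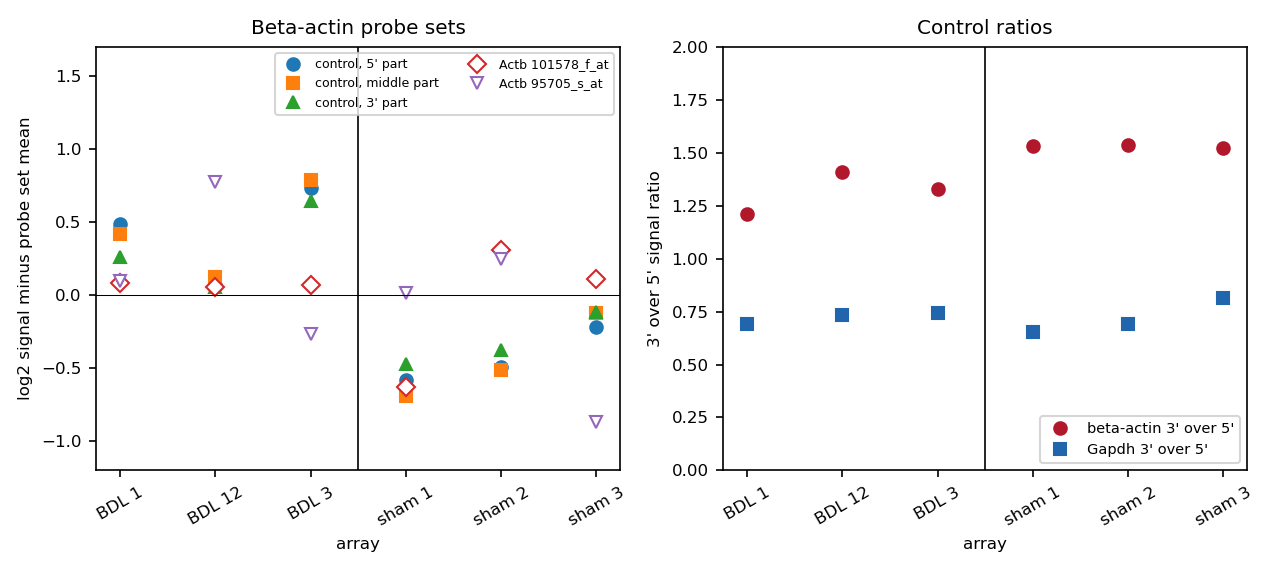
Left, log2 signals of 3 beta-actin control sets and 2 Actb probe sets on each array, each centred on its own mean. Right, ratio of 3′ to 5′ control signal for beta-actin and Gapdh: beta-actin ratios of 1.21 to 1.41 on BDL arrays lie below those of 1.52 to 1.54 on sham arrays.

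The gap was wider at the 5′ end than at the 3′ end of the transcript. The 3′ to 5′ signal ratio of beta-actin, a common sign of RNA quality, was 1.21, 1.41 and 1.33 in BDL replicates 1, 12 and 3, against 1.53, 1.54 and 1.52 in sham replicates 1, 2 and 3. All BDL ratios were below all sham ratios, by a mean of -0.213 (exact two-sided permutation p = 0.1, the smallest that 3 against 3 arrays can give). The middle to 5′ ratio was 0.973 ± 0.0460 in BDL and 0.958 ± 0.0697 in sham mice (SD, n = 3 each; exact permutation p = 0.9), and the 3′ to middle ratio was 1.35 ± 0.0475 in BDL and 1.60 ± 0.122 in sham mice (p = 0.1 by the same exact test). The separation thus lay between the 3′ set and the other sets. Gapdh showed no such separation: its 3′ to 5′ ratio was 0.722 ± 0.0282 in BDL and 0.719 ± 0.0839 in sham mice (SD, n = 3 each; exact permutation p = 1.0), and its middle to 5′ ratio gave p = 0.8 by the same exact test. The part of RNA quality in the actin differences was not tested.

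Tmsb10 and Tmsb4x, close relatives that bind single actin monomers, had gaps of different size. Tmsb10 (98129_at) had signals of 1108, 727 and 1781 in BDL replicates 1, 12 and 3, against 266, 352 and 617 in sham replicates 1, 2 and 3. The groups did not overlap, with sham replicate 3 close under BDL replicate 12. Its log2 difference was 1.55 (SE 0.44, 95% interval 0.55 to 2.54, limma adjusted p = 0.827), between 1.22 without BDL replicate 3 and 1.88 without sham replicate 3. Tmsb4x (96426_at) had signals of 2106, 743 and 4261 in BDL replicates 1, 12 and 3, against 2476, 506 and 1108 in sham replicates 1, 2 and 3. Its arrays overlapped widely, and sham replicate 1 was above 2 of the 3 BDL arrays. The log2 difference was 0.75 (SE 0.72, 95% interval -0.88 to 2.39, limma adjusted p = 0.873), and 1 array could move it far. It was 0.17 with BDL replicate 3 left out, 0.18 with sham replicate 2 left out, 1.33 with sham replicate 1 left out and 1.43 with BDL replicate 12 left out. No test of a difference between the thymosins was made.

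Tmsb4x is also plentiful in blood cells, and macrophage markers are given beside it. Of 14 macrophage markers all were on the array and 12 were tested, 10 of them with a positive difference (48.8% of all tested probe sets) and 2 with an unadjusted p under 0.05 on the higher side (16.7%, against 3.40% of all tested probe sets). Their summed signal was 17191, 11778 and 18885 in BDL replicates 1, 12 and 3, against 12686, 10968 and 7403 in sham replicates 1, 2 and 3. BDL replicate 12 had the lowest BDL value both in this sum and for Tmsb4x, as it did for 7 of the 10 member genes. Among sham arrays the lowest was replicate 3 in this sum and replicate 2 for Tmsb4x. Ctss, a lysosomal cathepsin of macrophages, differed by 0.92 (SE 0.33) and the signalling adaptor Tyrobp by 1.10 (SE 0.47), both with the groups apart, while Cd68 and C1qa differed by 0.89 and 0.99 with overlap. On the lower side, Adgre1 differed by -0.19 (SE 0.52) and the counted C1qb probe set by -0.29 (SE 0.29), both with overlap. A second, dimmer C1qb probe set gave 1.77 (SE 0.54) with the groups apart. The part of macrophages in the thymosin signals was not tested.

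Profilin and cofilin, which work on the same monomer pool from opposite sides, had overlapping groups. Pfn1 (96070_at), which loads actin onto growing ends, had signals of 2158, 1298 and 1371 in BDL replicates 1, 12 and 3, against 697, 1293.5 and 1488 in sham replicates 1, 2 and 3. BDL replicate 1 was above all sham arrays, sham replicate 3 was above the other BDL arrays, and sham replicate 2 was just under BDL replicate 12. The log2 difference was 0.51 (SE 0.38, limma adjusted p = 0.846), and without sham replicate 1 it was 0.17. Cfl1 (99119_at), the filament-severing cofilin, had signals of 7518, 6939 and 9860 in BDL replicates 1, 12 and 3, against 6418, 7265 and 7892 in sham replicates 1, 2 and 3. It had the lowest difference of the 10 genes at 0.16 (SE 0.29, 95% interval -0.50 to 0.82, limma adjusted p = 0.934), and 0.01 without BDL replicate 3.

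Csrp1, a LIM domain protein that binds alpha-actinin and bundles actin, was measured by 2 probe sets that gave different sizes. Probe set 92608_at had signals of 537, 509.8 and 481.5 in BDL replicates 1, 12 and 3, against 136, 214 and 85.0 in sham replicates 1, 2 and 3. The BDL arrays lay within a coefficient of variation of 5.4% and well above the sham arrays, of which replicates 1 and 3 were under the floor. Its log2 difference of 1.57 (SE 0.29, 95% interval 0.92 to 2.23, limma adjusted p = 0.667) ranked 3 of 9542 by unadjusted p. That rank has a limit: the floor narrows the spread of the sham signals, and the probe set passed the filter only through the BDL arrays and sham replicate 2. Raising the floor to the 40th percentile gave 0.63. Probe set 160065_s_at, the brighter of the pair and the one that stands for the gene in the counts, had 660.2, 579.9 and 625 in BDL replicates 1, 12 and 3, against 319, 612 and 257 in sham replicates 1, 2 and 3. Sham replicate 2 lay inside the BDL range there, and the log2 difference was 0.75 (SE 0.37, limma adjusted p = 0.832), 1.12 without sham replicate 2 and 0.49 without sham replicate 3.

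Tpm1, an alpha-tropomyosin that runs along the filament groove, had signals of 1852, 1059.7 and 2879 in BDL replicates 1, 12 and 3, against 1092, 1649 and 1416.5 in sham replicates 1, 2 and 3 (160532_at). The BDL group held both the highest and the lowest array, and the log2 difference was 0.38 (SE 0.40, limma adjusted p = 0.885), 0.04 without BDL replicate 3. Tagln2, the transgelin of non-muscle cells, had signals of 4955, 5285 and 6262 in BDL replicates 1, 12 and 3, against 4077, 4649 and 3492 in sham replicates 1, 2 and 3 (160162_at). Its groups did not overlap although the difference was small, at 0.44 (SE 0.28, 95% interval -0.21 to 1.08, limma adjusted p = 0.833). Leaving out 1 array at a time moved it between 0.33 and 0.54.

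**Figure D3:**
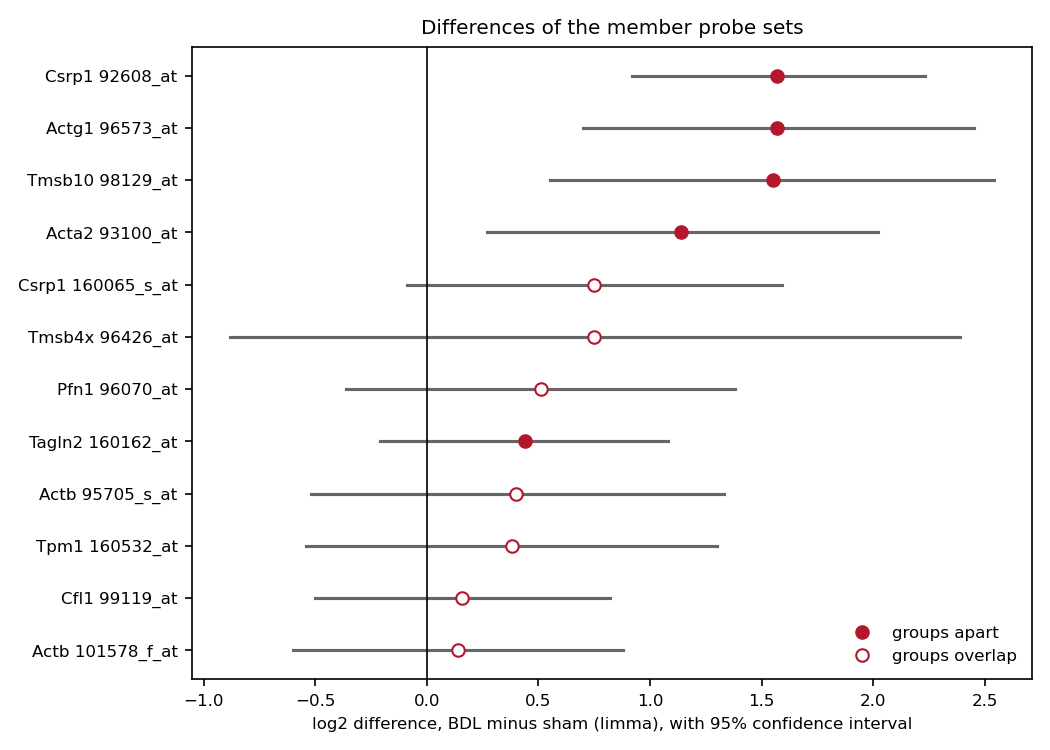
Log2 differences (BDL minus sham, x axis) of the 12 probe sets with limma's 95% confidence intervals, filled where the groups do not overlap. The intervals of Csrp1 92608_at, Actg1, Tmsb10 and Acta2 lie above 0 and those of the other 8 include it.

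The 10 genes did not share one profile over the arrays. In BDL, replicate 12 had the lowest BDL signal for 7 of the 10 genes, and the highest signal of all arrays was on BDL replicate 3 for 6 genes. In sham, replicate 3 was lowest for 5 genes and replicate 1 for 4. The median log2 signal, centred on each gene's own mean, was 0.50, 0.06 and 0.62 on BDL replicates 1, 12 and 3, against -0.43, -0.04 and -0.41 on sham replicates 1, 2 and 3. BDL replicate 12 and sham replicate 2 were thus the arrays nearest to 0. Actg1 and the Csrp1 probe sets had even BDL signals and uneven sham signals (log2 SD of 0.06 in BDL and 0.71 in sham for Actg1). Acta2, Tpm1 and Cfl1 had the larger spread in BDL, at 0.69, 0.72 and 0.27 against 0.19, 0.30 and 0.15 in sham, the Acta2 sham value being narrowed by the floor.

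**Figure D4:**
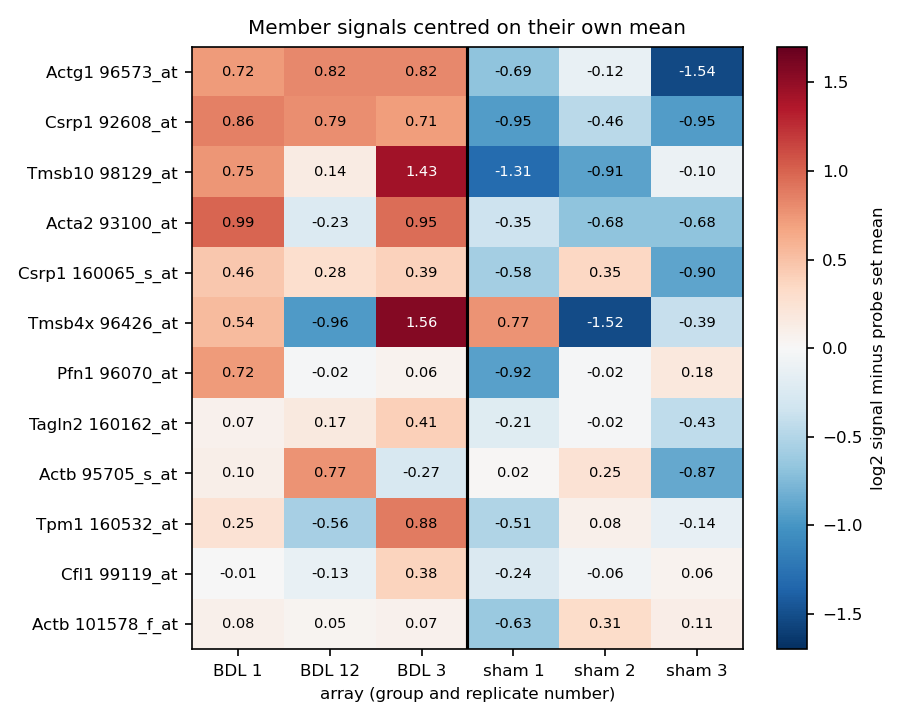
Log2 signals, with low signals at the floor, of the 12 probe sets on each array, centred on each probe set's mean, with red above and blue below it. Actg1 is at 0.72 to 0.82 on all BDL arrays, whereas Tmsb4x is at -0.96 on BDL replicate 12 and 0.77 on sham replicate 1.

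The genes whose profile was nearest to that of Actg1 over the 6 arrays were ranked by the root mean square difference of centred log2 signals, among 4410 genes whose mean log2 signal was at least 2 above that of the floor. They were AI506816 (0.265), Cdcp1 (0.309), Ets2 (0.356), Ctss (0.358) and Tpm4 (0.384). Of these, Tpm4 is an actin-binding tropomyosin. Its signals were 4622, 3393 and 4348 in BDL replicates 1, 12 and 3, against 1805, 3862 and 1351 in sham replicates 1, 2 and 3, with sham replicate 2 inside the BDL range. Likeness over 6 arrays is a description, and the genes share the arrays and their scaling.

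Other genes of the actin cytoskeleton were counted from lists, which were also chosen with earlier results of these data known. Outside the 10 members the lists held 115 genes, of which 94 were on the array and 83 were tested. Their median log2 difference was 0.15, 51 of 83 were positive, 5 had an unadjusted p under 0.05 on the higher side and 1 on the lower side (6.02% higher, against 3.40% of all tested probe sets), with 0 past limma's adjusted threshold. Leaving out sham replicate 3 took the count of 5 to 1, leaving out sham replicate 2 took it to 8, and leaving out BDL replicate 1 took it to 2. It was 3 when either BDL replicate 3 or sham replicate 1 was left out. It was also 2 with the floor at the 10th percentile. Over these omissions the share of all tested probe sets was 1.94% to 4.14%, and with that floor it was 2.47%.

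Tropomyosin, myosin and calponin genes held 3 of those 5 (17.6% of 17 tested, against 3.40% of all tested probe sets). Crosslinking, linkage and adhesion genes held the other 2 (6.67% of 30 tested). Of 17 tested tropomyosin, myosin and calponin genes 12 were positive, with a median of 0.12. Myh9, the heavy chain of non-muscle myosin IIA, had 7861, 6422 and 7297 in BDL replicates 1, 12 and 3, against 4280.4, 5633 and 3531 in sham replicates 1, 2 and 3, a log2 difference of 0.70 (SE 0.30), whereas its second probe set gave 0.27 (SE 0.31) with overlap. Cnn3, a calponin, differed by 0.73 (SE 0.31) with the groups apart, and Tpm4 by 0.95 (SE 0.41) with overlap. Myl6b, a myosin light chain, differed by -0.81 (SE 0.53) with overlap. Its dimmer probe set differed by -1.37 (SE 0.47) with the groups apart. That probe set was under the floor on all BDL arrays and passed the filter through the sham arrays alone. Of 30 tested crosslinking, linkage and adhesion genes 16 were positive, with a median of 0.09. Ablim1, an actin-binding LIM protein, had 608, 468 and 1006 in BDL replicates 1, 12 and 3, against 133, 208.5 and 281 in sham replicates 1, 2 and 3, a log2 difference of 1.67 (SE 0.38, limma adjusted p = 0.667). Moesin (Msn), which ties actin to the plasma membrane, differed by 0.96 (SE 0.36) with the groups apart, alpha-spectrin (Sptan1) by 0.80 (SE 0.40) with overlap and integrin beta-1 (Itgb1) by 0.47 (SE 0.27) with the groups apart, or by 0.16 (SE 0.29) with overlap in its second probe set.

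Among the genes that start and trim filaments, 0 of 14 nucleation genes and 0 of 19 monomer-binding, severing and capping genes had an unadjusted p under 0.05 on the higher side, a share near the 3.40% of all tested probe sets. Of 14 tested nucleation genes, which include the Arp2/3 complex that branches filaments, 10 were positive, with a median of 0.36. The Arp2/3 subunits Arpc1a and Arpc4 differed by 0.52 (SE 0.33) and 0.71 (SE 0.50), and the filament-elongating Vasp and Evl by 0.59 (SE 0.36) and 0.52 (SE 0.33), all with overlapping groups. For Arpc4, signals were 3931 to 4073 on the BDL arrays, against 1021 on sham replicate 1 and 3496 and 4041 on the other sham arrays. Of 19 tested monomer-binding, severing and capping genes 10 were positive, with a median of 0.09. Cap1, which recycles actin monomers, had 186.5, 325 and 413 in BDL replicates 1, 12 and 3, against 739, 458 and 464 in sham replicates 1, 2 and 3. It lay lower in BDL without overlap, by a log2 difference of -0.88 (SE 0.38, limma adjusted p = 0.832). Wdr1, Coro1c and Scin differed by 0.55, 0.92 and 0.76 with overlapping groups.

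**Figure D5:**
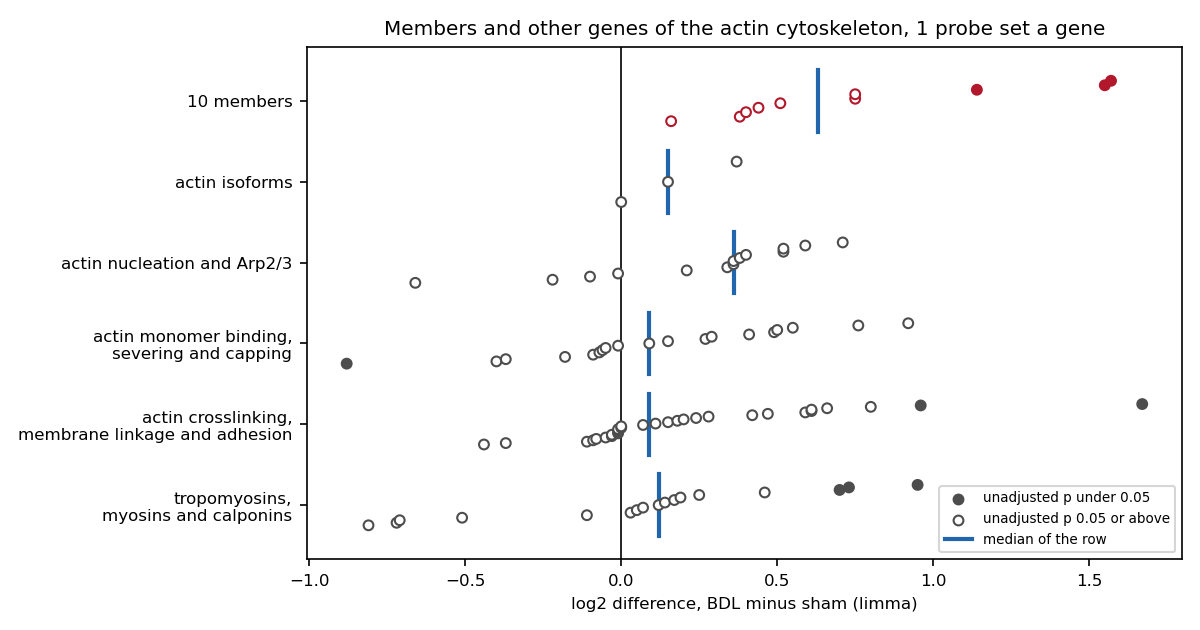
Log2 differences (BDL minus sham, x axis) of the 10 members and of the other genes of 5 actin lists, 1 point per gene, filled at an unadjusted p under 0.05, with the median of each row as a bar. The members lie between 0.16 and 1.57 with a median of 0.63, and the medians of the other rows lie between 0.09 and 0.36.

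Markers of further cell types are given beside the actin signals. Of all tested probe sets 48.8% had a positive difference. Endothelial markers had 8 of 11 tested genes positive, with sums between 8574 and 10831 in BDL livers, against 5561 to 10449 in sham livers. Of these 11, 2 had an unadjusted p under 0.05 on the higher side (18.2%, against 3.40% of all tested probe sets). They were the Fc receptor Fcgr2b, at 1.29 (SE 0.33) with the groups apart, and the cadherin Cdh5, at 1.20 (SE 0.53) with overlap. For cholangiocytes 4 of 5 tested markers were positive, with sums between 3181 and 5097 in BDL livers, against 1696 to 3634 in sham livers. Krt19 and Cldn4 differed by 0.32 (SE 0.35) and 0.52 (SE 0.48), both with overlap, and Krt19 was under the floor on 1 BDL and 2 sham arrays. The defining markers Krt7 and Epcam were each above the floor on 1 array only, sham replicate 1. Of the 5 tested cholangiocyte markers, 2 had an unadjusted p under 0.05 on the higher side (40%, against 3.40% of all tested probe sets). These were the annexins Anxa3, at 381, 404.5 and 389 in BDL replicates 1, 12 and 3 against 137, 72.9 and 63.0 in sham replicates 1, 2 and 3, and Anxa2, which differed by 1.03 (SE 0.39) with overlap. Anxa3 was under the floor on all sham arrays, and so passed the filter through the BDL arrays alone. Neutrophil markers had 3 of 10 positive. S100a9, a calprotectin subunit, differed by 1.49 (SE 0.59) with overlap. On the lower side, Elane differed by -0.74 (SE 0.39) with overlap and Camp by -0.60 (SE 0.33) with the groups apart. The neutrophil sums were between 62462 and 109895 in BDL livers, against 49778 to 70163 in sham livers. Most of that sum was Lcn2, which injured hepatocytes also make, at 55676 to 101006 in BDL livers, against 37344 to 65153 in sham livers. Its log2 difference was 0.63 (SE 0.36), whereas its second probe set gave -0.46 (SE 0.39), both with overlap. Lymphocyte markers had 1 of 5 positive, with sums between 2508 and 3032 in BDL livers, against 2700 to 8078 in sham livers, the highest on sham replicate 1. Mesothelial markers had 1 of 3 positive, with sums between 1127 and 1362 in BDL livers, against 1061 to 2984 in sham livers. Of 11 hepatocyte markers 5 were positive, with a median of -0.13, and transthyretin (Ttr) was lower in BDL by a log2 difference of -1.25 (SE 0.36, limma adjusted p = 0.83) with the groups apart. These sums overlapped between the groups for all of these lists. The part of such cells in the actin differences was not tested.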

How the data were processed

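Liver RNA of 3 BDL and 3 sham mice was measured on 6 arrays, 20 µg of cRNA and 1 mouse on each. The authors used Affymetrix MicroArray Suite 4.0 and GeneChip software 3.1, per the series' design text. The sources used here do not state settings, background step or scaling target. The deposited values are 1 linear intensity per probe set and array, and they were kept as scaled because the 2% trimmed means were within 5% of each other.

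Signals under 152.7, the 25th percentile of all values, were raised to it and log2 was taken, which understates differences of low signals. Of 12488 probe sets 66 controls were left out. The 9542 others with at least 3 of 6 arrays above the floor were tested with limma 3.58.1 in R 4.3.3. The fit used lmFit and eBayes without covariates, and Benjamini-Hochberg over all tested probe sets at a threshold of 0.05. The same fit was run on simulated arrays with independent noise and larger differences than those of the members. That run does not bear on the power at the sizes reported here. SE is limma's moderated standard error, and a fold is 2 to the power of the log2 difference. No detection calls were used. Beta-actin signal ratios were compared by exact permutation of the 6 arrays in scipy 1.17.1, and the alternative settings tried are listed with their effect in the closing section.

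Probe sets were named by GEO's platform annotation, with symbols brought up to date through RefSeq gene identifiers (GRCm38.p6): 10833 probe sets had 1 symbol, 396 several and 1193 none, and only the first kind was named. Where several probe sets measured a gene, the brightest one (mean log2 signal) was counted. Named are all members, the beta-actin and Gapdh controls, up to 4 tested genes of each actin or marker list with the smallest unadjusted p, and the 5 genes nearest to Actg1. Lists of stellate and smooth muscle, macrophage, neutrophil, lymphocyte, cholangiocyte, endothelial, mesothelial and hepatocyte markers stand beside the 5 actin lists. For the marker lists the text gives only those named genes on which a statement bears, and other genes it names (Tagln, Myh11, Cnn1, Krt7, Epcam, Adgre1, C1qb) were chosen after their values were seen. Members and lists were chosen with earlier results of these data known. No batch is recorded in the sources used here.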

Additional observations from a re-analysis of the deposited data

How the results depend on the processing

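The alternatives covered quantile normalization, a common median, other floors, an added constant of 100, other filters, control probe sets kept in, other variance models, array weights, the replicate number as a block, another choice of probe set, and leaving out each array in turn. All tested member genes kept a positive difference under each of the 18 refits, 9 genes where the floor was at the 40th percentile or the filter at the 50th and 10 otherwise. Among single probe sets, Actb 101578_f_at turned negative with array weights (-0.06) and lay between -0.14 (without sham replicate 1) and 0.33 when 1 array was left out. The lowest adjusted p of any member over all refits was 0.207, with array weights. Leaving out 1 array gave 0 probe sets past the adjusted threshold each time, 2 to 4 member genes higher at an unadjusted p under 0.05, and a member median of 0.58 to 0.78. Actin genes outside the members numbered 1 to 8 in place of 5 under these omissions, 2 with the floor at the 10th percentile and 9 with the replicate block. Over all tested probe sets the share higher at that p was 1.94% to 4.14% under these omissions. It was 2.47% with the floor at the 10th percentile and 4.06% with the replicate block. The 3′ to 5′ difference of beta-actin stayed between -0.259 and -0.161, and the middle to 5′ ratio differed by 0.0155 in the other direction, since it compares other probe sets. Without a filter 3 probe sets passed the adjusted threshold, 0 of them members. Over all probe sets, 324 were higher at an unadjusted p under 0.05, 569 with array weights and 181 without BDL replicate 3, while 228 were lower, 454 with array weights, 109 under the stricter filter, 148 with the floor at the 40th percentile, 119 without BDL replicate 3, 105 without sham replicate 1 and 772 without sham replicate 3.

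Only numbers 1 and 3 are shared by the groups, and the labels do not say that they mark a pair. Deviations from the group means correlated at 0.209 for the arrays numbered 1 and 0.246 for those numbered 3, and at 0.289 for BDL replicate 12 with sham replicate 2. All other combinations of a BDL and a sham array correlated between -0.211 and -0.04. With the replicate number as a block, BDL replicate 12 and sham replicate 2 have no partner and the difference rests on the other 4 arrays. The member median was then 0.87, with 0 probe sets past the adjusted threshold. At an unadjusted p under 0.05, 4 member genes were higher, against 4.06% of all tested probe sets. Low signals limit Acta2 and Csrp1 92608_at, whose sizes depend on the floor. Acta2 was under Actg1 in most settings and above it with array weights (1.39 against 1.30) and with the floor at the 10th percentile (2.02 against 1.57).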
